A study of Mus musculus with 2 samples.

Results

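Mir208a, Mir208b and Mir499 are the miRNA genes that lie inside 3 genes of myosin heavy chains. They were chosen by position, as the miRNA genes within Myh6, Myh7 and Myh7b, and are 3 of the 2202 miRNA genes counted. Reads were counted in heart tissue of adult male B6CASTF1/J mice, a cross of the C57BL/6J and CAST/EiJ strains, at an age of 18 to 20 months. There was 1 group of 2 small RNA libraries, with no treatment, mutation or control given. Their labels call them biological replicate number 1 and number 2, shortened here to replicate 1 and replicate 2. Each library had its own biosample and both had 1 donor record in common, so p-values below compare libraries and not animals or conditions, and the spread between the libraries may be technical. The tissue was bulk heart, in which fewer cells of a type and less of an RNA per cell cannot be told apart.

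MiRNAs are small RNAs cut from hairpins, and their seed (bases 2 to 8 of the mature strand) pairs with messenger RNAs and lowers their output. Myh6 encodes alpha myosin heavy chain, the fast motor protein of the adult mouse ventricle, and Myh7 encodes beta myosin heavy chain, the slower motor of the fetal heart and of slow skeletal fibres. Myh7b is a more distant relative of both. In mice, miR-208a is known to be needed for the return of Myh7 under stress or low thyroid hormone, and to be needed for the expression of Mir208b and Mir499. In mouse skeletal muscle, miR-208b and miR-499 are known to act together in promoting the slow fibre type.

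The mature strands are shown because they tell which of these miRNAs can share targets and which reads can be told apart. Sequences are from RefSeq on GRCm38.p6, 5′ to 3′, with the seed in capitals. All 3 genes matched the RefSeq table by symbol. The strand known as the main product comes first for each gene.
miR-208a-3p, chr14:54949072-54949093, minus strand: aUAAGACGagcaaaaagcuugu
miR-208b-3p, chr14:54975710-54975731, minus strand: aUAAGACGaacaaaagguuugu
miR-499-5p, chr2:155622893-155622913, plus strand: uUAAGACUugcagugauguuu
miR-208a-5p, chr14:54949107-54949128, minus strand: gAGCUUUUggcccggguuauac
miR-208b-5p, chr14:54975745-54975766, minus strand: aAGCUUUUugcucgcguuaugu
miR-499-3p, chr2:155622929-155622951, plus strand: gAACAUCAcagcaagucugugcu

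By seed, miR-208a-3p and miR-208b-3p form 1 group with UAAGACG, and among 1738 mature sequences in the RefSeq table no other had that seed. MiR-499-5p had UAAGACU, which no other sequence in the table had. Bases 2 to 7, UAAGAC, were common to the main strands of all 3 genes and to no other mature sequence. Counted from 1 at the 5′ end, miR-208a-3p and miR-208b-3p were identical at 19 of 22 positions (86.4%) and differed by G10A, A16G and C18U, written with the base of miR-208a-3p before the position. MiR-208a-3p and miR-499-5p were identical at 12 of 21 positions (57.1%), and miR-208b-3p and miR-499-5p at 10 of 21 (47.6%). The 5p strands of Mir208a and Mir208b also had a common seed, AGCUUUU, which they shared with mmu-miR-6415, whose gene Mir6415 had 0 reads in both libraries.

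The hairpins are shown to place both mature strands, which are in capitals here.
Mir208a hairpin: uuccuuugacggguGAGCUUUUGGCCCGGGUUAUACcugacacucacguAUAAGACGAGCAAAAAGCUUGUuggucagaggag
Mir208b hairpin: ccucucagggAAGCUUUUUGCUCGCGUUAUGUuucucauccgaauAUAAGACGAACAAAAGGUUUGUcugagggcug
Mir499 hairpin: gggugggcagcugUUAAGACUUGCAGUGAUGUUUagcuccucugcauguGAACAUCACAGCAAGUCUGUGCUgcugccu

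The longest exact stretch that the Mir208a hairpin shared with any of 1004 other hairpins was 10 bases, with Mir208b, and it lay around the start of the 3p strand. It was 11 bases for Mir208b, with Mir379 among the partners, and 12 bases for Mir499, with Mir1968 among them. None of the 3 shared a stretch of 22 bases, about the length of a read, and no other gene among 141767 annotated transcripts held an exact copy of a main mature strand on either strand. After Mir208b and Mir208a themselves, the genes with the most matching bases were Mir6978 for miR-208a-3p (13 of 22), Mir377 for miR-208b-3p (14 of 22) and Mir6397 for miR-499-5p (14 of 21). Mir6978 and Mir6397 had 0 reads in both libraries, and Mir377 had 6 reads in replicate 2 and 4 in replicate 1. The counts are given per gene, so reads of the 5p and 3p strands cannot be told apart.

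All 3 miRNA genes lie in the sense direction in an intron of their host, by the GENCODE M21 annotation of GRCm38 (mm10). Mir208a (ENSMUSG00000065432.1, chr14:54949060-54949142, minus strand) lies in intron 29 of 38 of Myh6, and Mir208b (ENSMUSG00000077928.1, chr14:54975700-54975776, minus strand) in intron 31 of 40 of Myh7. These introns hold corresponding places: in each host 9 introns follow, the exon before it has 197 bases and the exon after it 184. Myh6 and Myh7 are neighbours, 3756 bases apart, and their miRNAs lie 26557 bases apart. Mir499 (ENSMUSG00000076312.1, chr2:155622880-155622958, plus strand) lies in intron 19 of 41 of Myh7b, followed by 22 introns, between exons of 77 and 88 bases. The host introns were of like length, 542 bases in Myh6, 461 in Myh7 and 481 in Myh7b, against medians of 294.5, 277 and 178 bases over all introns of the transcripts used. Each hairpin began 102 to 195 bases after the exon before it and ended 244 to 282 bases ahead of the next. No gene is annotated on the opposite strand over any of the 3.

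**Figure D1:**
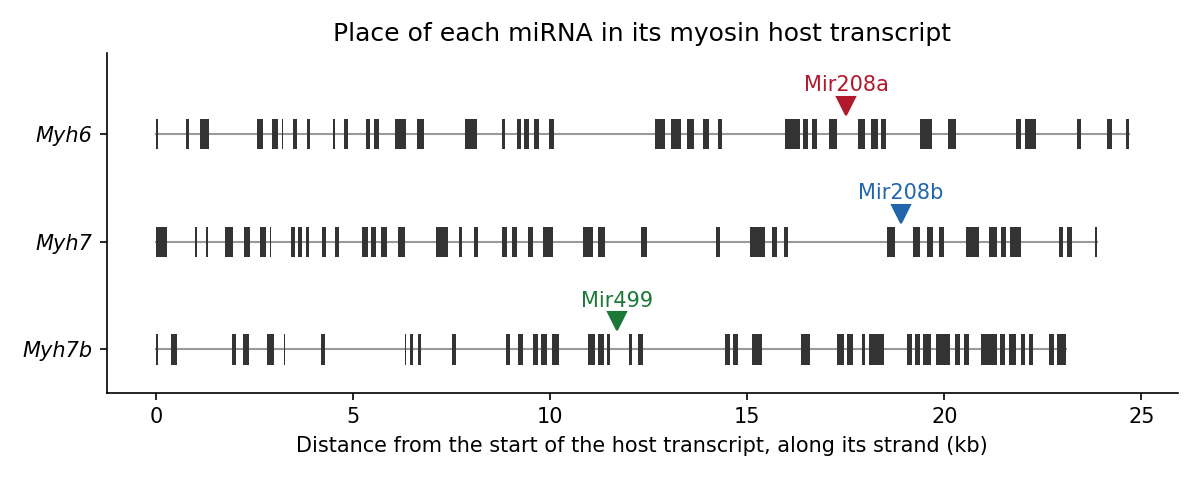
Exons (boxes) and introns (lines) of the Myh6, Myh7 and Myh7b transcripts used, against the distance from the transcript start in kb along its strand, with a triangle at each miRNA. Mir208a and Mir208b lie toward the end of their hosts, each with 9 introns after it, and Mir499 lies near the middle of Myh7b with 22 introns after it.

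Mir208a and Mir499 were abundant in heart and Mir208b was scarce. Replicate 2 held 5284446 reads in miRNA genes and replicate 1 held 3037063, and levels are given as reads per 1000000 of these (CPM). For Mir208a, the miRNA of the alpha myosin gene, 48375 reads (9154 CPM) were counted in replicate 2 and 15744 reads (5184 CPM) in replicate 1, a mean of 7169 ± 2807 CPM (SD, n = 2). For Mir499, the miRNA of Myh7b, 28998 reads (5487 CPM) were counted in replicate 2 and 16882 reads (5559 CPM) in replicate 1, a mean of 5523 ± 50.4 CPM (SD, n = 2). For Mir208b, the miRNA of the beta myosin gene, 612 reads (116 CPM) were counted in replicate 2 and 152 reads (50.0 CPM) in replicate 1, a mean of 82.9 ± 46.5 CPM (SD, n = 2). Mir208a and Mir208b were higher in replicate 2, and Mir499 was at nearly the same level in both libraries. The level of Mir499 in either library lay between the levels of Mir208a in the 2 libraries, so the Mir208a and Mir499 ranges overlapped and their means did not differ beyond the spread, while Mir208b lay below both without overlap.

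**Figure D2:**
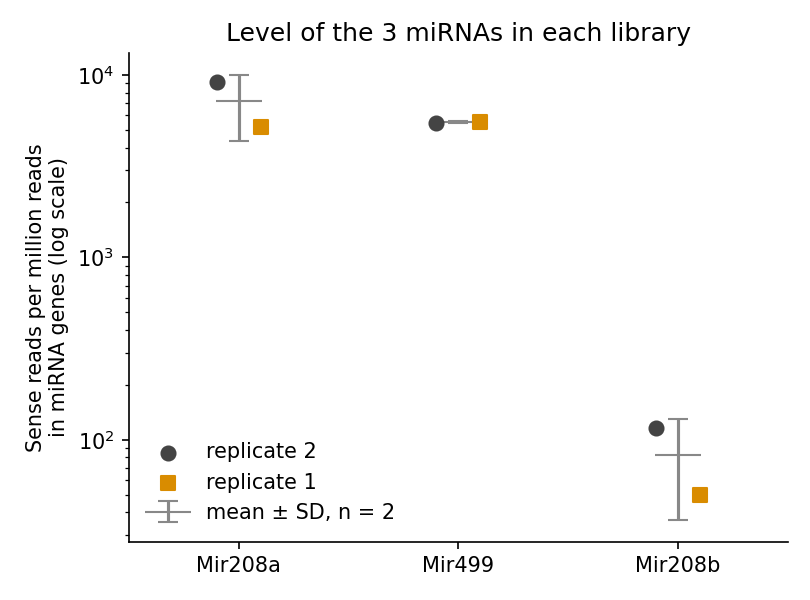
Level in CPM (log scale) of Mir208a, Mir499 and Mir208b, as circles for replicate 2 and squares for replicate 1, with the mean and SD of the 2 libraries in grey. Mir499 lies at 5487 CPM in replicate 2 and 5559 CPM in replicate 1, Mir208a lies above it in replicate 2 and below it in replicate 1, and Mir208b lies at 116 CPM in replicate 2 and 50.0 CPM in replicate 1.

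Among the 2202 genes, of which 674 had any read in replicate 2 and 615 in replicate 1, Mir208a ranked 20 in replicate 2 and 27 in replicate 1. Mir499 ranked 27 in replicate 2 and 26 in replicate 1, and Mir208b ranked 135 in replicate 2 and 161 in replicate 1. As a share of miRNA reads, Mir208a had 0.915% (95% Wilson interval 0.907 to 0.924) of replicate 2 and 0.518% (0.510 to 0.527) of replicate 1. Mir499 had 0.549% (0.542 to 0.555) of replicate 2 and 0.556% (0.548 to 0.564) of replicate 1, intervals that overlap. Mir208b had 0.0116% (0.0107 to 0.0125) of replicate 2 and 0.00500% (0.00427 to 0.00587) of replicate 1. All 3 together made up 1.48% (1.47 to 1.49) of replicate 2 and 1.08% (1.07 to 1.09) of replicate 1. Reads that mapped to several places, 32.5% of all reads in replicate 2 and 40.7% in replicate 1, were given to no gene. These ranks and shares therefore hold among reads given to a single gene, and genes with copies are not on the same footing in them.

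Ratios within a library do not depend on any scaling between libraries. Mir499 over Mir208a, the ratio of the Myh7b miRNA to the Myh6 miRNA, was 0.599 in replicate 2 (28998 against 48375 reads, 95% Clopper-Pearson interval 0.591 to 0.608) and 1.07 in replicate 1 (16882 against 15744 reads, 1.05 to 1.10). The order of these genes thus turned round between the libraries: Mir208a was ahead by 1.67-fold in replicate 2 and Mir499 was ahead by 1.07-fold in replicate 1. Neither interval held 1, yet the mean log2 ratio, -0.32 ± 0.59 (SD, n = 2), was smaller than its spread, so these 2 libraries set no order between Mir499 and Mir208a.

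Mir499 over Mir208b, the ratio of the Myh7b miRNA to the Myh7 miRNA, was 47.4 in replicate 2 (28998 against 612 reads, interval 43.7 to 51.4) and 111 in replicate 1 (16882 against 152 reads, 94.7 to 131). Averaged over the libraries this was 6.18 ± 0.87 on the log2 scale (SD, n = 2), 72.5-fold as a geometric mean. For Mir208a over Mir208b, within the alpha and beta myosin neighbours, the ratio was 79.0 in replicate 2 (interval 73.0 to 85.7) and 104 in replicate 1 (88.3 to 122). The average was 6.50 ± 0.28 on the log2 scale (SD, n = 2), 90.5-fold as a geometric mean. Mir208b was the lowest of the 3, at least 47.4-fold below either of the others in each library. An exact sign-flip test over 2 libraries cannot go below p = 0.5, so none was run on these ratios.

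**Figure D3:**
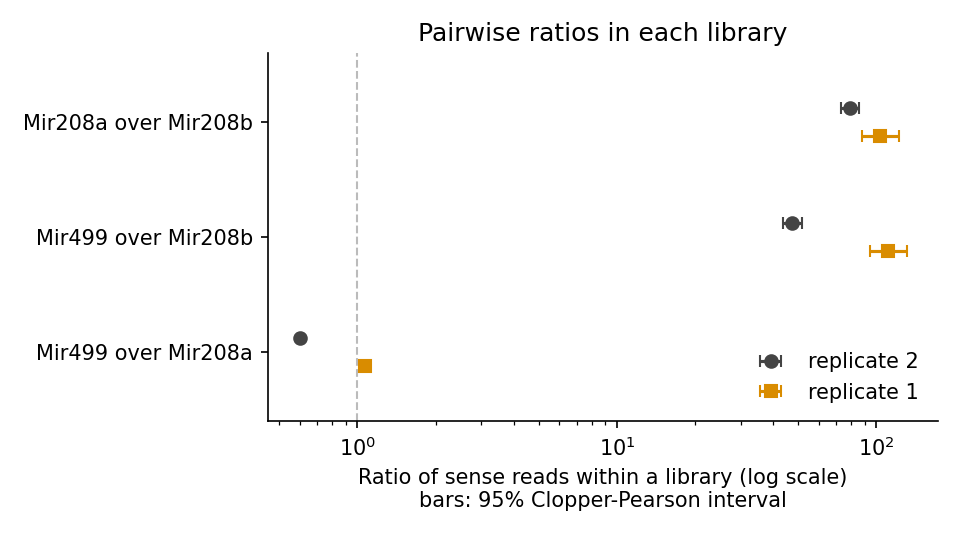
Ratio of sense reads for each pair of the 3 miRNA genes within each library (log scale), circles for replicate 2 and squares for replicate 1, with 95% Clopper-Pearson intervals that cover counting error alone; the dashed line marks a ratio of 1. Both ratios over Mir208b lie between 47.4 and 111, and Mir499 over Mir208a falls on either side of 1.

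Each of the 3 ratios differed between the libraries by more than counting error, given here as the log2 ratio in replicate 2 minus that in replicate 1. For Mir499 over Mir208a the log2 difference was -0.84 (95% interval -0.88 to -0.80), with an adjusted p of at most 1e-300 by the two-sided Fisher's exact test on counts, adjusted by Benjamini-Hochberg over the 3 pairs. For Mir499 over Mir208b it was -1.23 (-1.50 to -0.97; adjusted p = 1.55e-23, same exact test). For Mir208a over Mir208b it was -0.39 (-0.66 to -0.13; adjusted p = 0.00264, same exact test), and although this change is the smallest of the 3, it too lay outside counting error. Relative to the miRNA of Myh7b, the miRNAs of Myh6 and Myh7 therefore differed between the libraries in the same direction. Ratios of this kind do not tell which of the miRNAs changed in level.

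The make-up of the reads from the 3 genes shows the same values as shares. Mir208a made up 62.0% (95% Wilson interval 61.7 to 62.4) of the 77985 reads of replicate 2 and 48.0% (47.5 to 48.6) of the 32778 reads of replicate 1. Mir499 made up 37.2% in replicate 2 (36.8 to 37.5) and 51.5% in replicate 1 (51.0 to 52.0). Mir208b made up 0.785% in replicate 2 (0.725 to 0.849) and 0.464% in replicate 1 (0.396 to 0.543). Grouped by seed, Mir208a and Mir208b together had 1.69 times the reads of Mir499 in replicate 2 (1.66 to 1.71) and 0.942 times its reads in replicate 1 (0.921 to 0.962), and nearly all of that group was Mir208a.

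**Figure D4:**
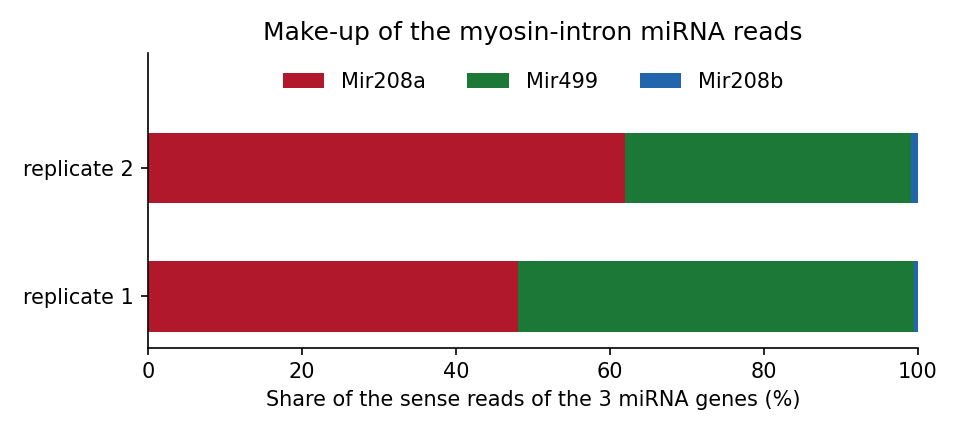
Share of the sense reads of the 3 genes (%) that came from Mir208a, Mir499 and Mir208b in replicate 2 (above) and replicate 1 (below). Mir208a makes up 62.0% of the bar in replicate 2 and 48.0% in replicate 1, and Mir208b is the thin end segment of under 1% in both.

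Between the libraries, Mir208a and Mir208b were higher in replicate 2 and Mir499 was not called. Over the 424 miRNA genes whose reads summed to 10 or more over the libraries, an exact binomial test per gene called 224 genes (52.8%) in either direction and 131 (30.9%) as higher in replicate 2, at a Benjamini-Hochberg adjusted p under 0.05. Against that background, 2 of the 3 genes were called, both higher in replicate 2. Mir208a was 1.77-fold higher in replicate 2 (95% interval 1.73 to 1.80; log2 ratio 0.82; adjusted p at most 1e-300, exact binomial test). Mir208b was 2.31-fold higher in replicate 2 (1.93 to 2.78; log2 ratio 1.21; adjusted p = 1.4e-22, exact binomial test). Mir499 had a log2 ratio of -0.02 (-0.05 to 0.01; adjusted p = 0.28, exact binomial test).

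This test covers counting error alone. When the spread of this pair of libraries was put into the test as a common dispersion (edgeR exact test, a coefficient of variation between libraries of 48.6%), 7 of the 424 genes (1.65%) and none of the 3 were called. The adjusted p was 1 for each, and the unadjusted p was 0.432 for Mir208a, 0.255 for Mir208b and 0.977 for Mir499, so 0 of 3 lay under 0.05 before adjustment too. The dispersion was estimated from the same difference between the libraries that the test then judged, so a difference of common size could hardly be called. A missing call here therefore does not show that a gene was alike in both libraries. Among the 134 tested genes with 1000 or more reads, whose median absolute log2 ratio was 0.28, a larger absolute log2 ratio than that of Mir208a was found for 22 genes (16.4%). A larger one than that of Mir499 was found for 129 of the 134 (96.3%). Among all 424 genes, whose median absolute log2 ratio was 0.50, a larger one than that of Mir208b was found for 89.

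**Figure D5:**
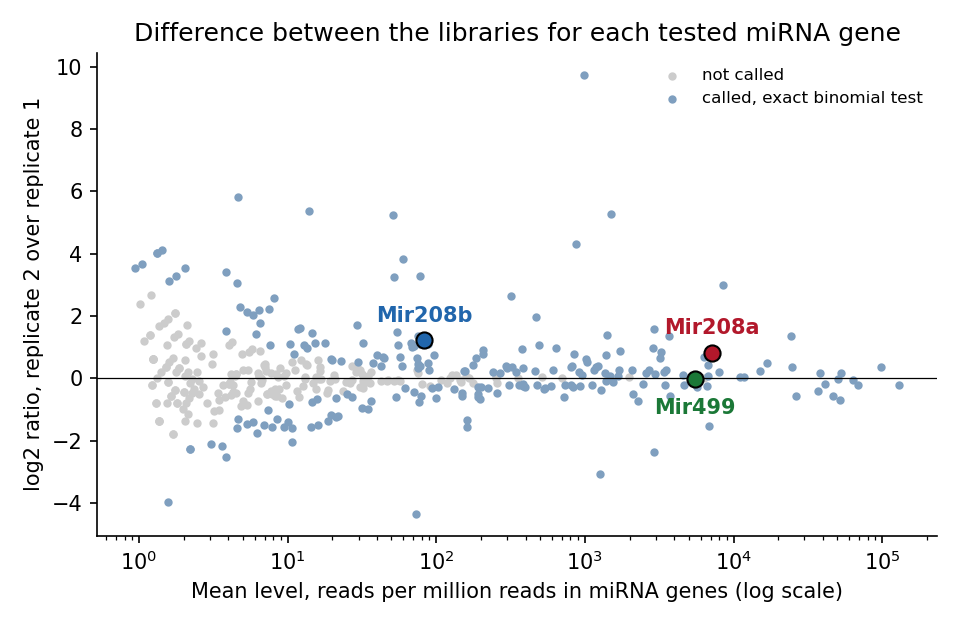
Log2 ratio of replicate 2 over replicate 1 against mean level (CPM, log scale) for the 424 tested miRNA genes, blue where the exact binomial test called a difference and grey where it did not, with Mir208a, Mir208b and Mir499 as large points. Mir208a lies at 0.82 and Mir208b at 1.21, inside the cloud of other genes, and Mir499 lies on the zero line at -0.02.

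The size and the call of Mir499 depended on the total used for scaling. Taken over all reads of the library (19574873 in replicate 2 and 9468820 in replicate 1, including unmapped reads and reads mapped to several places), the median log2 ratio of all tested genes moved by -0.25. The background turned round as well: 81 genes were called as higher in replicate 2 and 145 as higher in replicate 1, against 131 and 93 with miRNA reads as the total. On that scale the log2 ratio was 0.57 for Mir208a, 0.96 for Mir208b and -0.27 for Mir499, the last now called as lower in replicate 2 (adjusted p = 3.03e-79, exact binomial test). The make-up of this total differed between the libraries. Unmapped reads were 34.3% of it in replicate 2 and 19.4% in replicate 1. Reads mapped to several places were 32.5% in replicate 2 and 40.7% in replicate 1. The order of the 3 genes by log2 ratio, Mir208b above Mir208a above Mir499, is fixed by the counts and is the same on any scale.

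On the opposite strand 0 reads were counted at each of the 3 genes in both libraries, which allows at most 0.0062% of the sense reads of Mir208a in replicate 2 and 0.0191% in replicate 1 at 3 reads. For Mir499 these limits were 0.0103% in replicate 2 and 0.0178% in replicate 1, and for Mir208b, with its lower depth, 0.49% in replicate 2 and 1.97% in replicate 1. The column for reads on either strand held the same counts as the sense column at all 3 genes, so all 6 pairwise ratios are the same in it. Over all miRNA genes the column used as sense summed to more than the opposite column, 5284446 against 1365219 reads in replicate 2 and 3037063 against 784335 in replicate 1. The column for either strand summed to less than the sense column, with 3919613 reads in replicate 2 and 2252906 in replicate 1. The columns thus do not add up, and their sums do not give the share of miRNA reads on the opposite strand.

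Other miRNAs of muscle had fewer counted reads than Mir208a and Mir499 in both libraries. A list of 8 genes was taken: Mir1a-1, Mir1a-2, Mir1b, Mir133a-1, Mir133a-2, Mir133b, Mir206 and Mir486. Mir486, which is also abundant in red blood cells, had 6994 reads (1324 CPM) in replicate 2 and 3144 reads (1035 CPM) in replicate 1. The miR-1 and miR-133 genes, which in heart and skeletal muscle are known to act in proliferation and differentiation, had at most 141 reads (Mir1a-2 in replicate 2) and at least 3 (Mir1b in replicate 1), so each of the 6 was counted below Mir208b in both libraries. Reads that mapped to several places were given to no gene, and they made up 32.5% of all reads in replicate 2 and 40.7% in replicate 1, so levels of genes with copies are not on the same footing as those of Mir208a, Mir208b and Mir499. Of the list, 7 genes had enough reads for the binomial test: 1 (Mir486, log2 ratio 0.35) was called as higher in replicate 2, none as higher in replicate 1, and 6 were not called. Those 6 had at most 141 reads in a library, and their log2 ratios ran from -0.87 (Mir1a-1) to 1.16 (Mir133a-1). Their missing calls therefore do not show that their levels were alike. The median log2 ratio of the 7 genes was 0.07, and that of all 424 tested genes was 0.07 as well. The binomial test called 224 of the 424 (52.8%) in either direction and 131 (30.9%) as higher in replicate 2.

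Some markers of other cell types also differed between the libraries by the exact binomial test, which covers counting error alone. Mir206, the miRNA of skeletal muscle, was not called, with 26 reads (4.92 CPM) in replicate 2 and 19 reads (6.26 CPM) in replicate 1. Mir208b and Mir499 are made in skeletal muscle too, and its part in their reads was not tested. The summed level of 7 epithelial miRNAs, all with reads, was 3874 CPM in replicate 2 and 298 CPM in replicate 1. Mir205 (1963 CPM in replicate 2 and 2.30 CPM in replicate 1) and Mir200c (1652 CPM in replicate 2 and 82.6 CPM in replicate 1) carried this difference. Of the other 5, Mir141 and Mir203 were called as higher in replicate 2, Mir200b and Mir429 as higher in replicate 1, and Mir200a was not called (exact binomial test). The 2 red blood cell miRNAs, Mir144 and Mir451a, summed to 1219 CPM in replicate 2 and 7165 CPM in replicate 1. Mir486, listed above with muscle and also abundant in red blood cells, went the other way (1324 CPM in replicate 2 and 1035 CPM in replicate 1). The 4 fibroblast miRNAs summed to 3823 CPM in replicate 2 and 1952 CPM in replicate 1, where Mir199a-1 was at 0. Nearly all of this sum was Mir214 (3808 CPM in replicate 2 and 1935 CPM in replicate 1), while Mir199b was lower in replicate 2 (7.38 CPM) than in replicate 1 (13.2 CPM). Endothelial miRNAs (2 of 2 with reads, nearly all of them Mir126a) summed to 109825 CPM in replicate 2 and 85244 CPM in replicate 1, and smooth muscle miRNAs (2 of 2, mostly Mir143) to 40641 CPM in replicate 2 and 45692 CPM in replicate 1. Leukocyte miRNAs (3 of 4 with reads, Mir142b at 0 in both libraries) summed to 3630 CPM in replicate 2 and 3405 CPM in replicate 1. Most of this sum was Mir150 (3115 CPM in replicate 2 and 2843 CPM in replicate 1). Mir150 and Mir223 were called as higher in replicate 2, and Mir142 as higher in replicate 1 (exact binomial test). Against these, the 3 myosin-intron miRNAs summed to 14758 CPM in replicate 2 and 10793 CPM in replicate 1, 1.37-fold higher. The part of these markers in the difference of Mir208a and Mir208b between the libraries was not tested.

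In the order of mean levels, Mir208a stood between Mir125a (8019 ± 830 CPM) and Mir99b (6820 ± 4732 CPM; SD, n = 2 for each), and its range overlapped with both. Mir499 stood between Mir652 (5663 ± 763 CPM), with which it overlapped, and Mir93 (4616 ± 465 CPM), which lay below it in both libraries without overlap. Mir208b stood between Mir547 (88.1 ± 21.2 CPM) and Mir18 (80.8 ± 7.74 CPM) and overlapped with both. Places next to each other in this order were therefore not set by these libraries, apart from that of Mir499 above Mir93.

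Likeness to a member was measured as the distance in log2 ratio between the libraries, over 2 libraries and 242 other genes whose reads summed to 100 or more. Nearest to Mir208a (0.82) were Mir140 (0.83) and Mir674 (0.86). Nearest to Mir208b (1.21) were Mir669o and Mir201 (1.14 each), and nearest to Mir499 (-0.02) were Mir540 (-0.02) and Mir8112 (-0.01). These values rest on 1 difference per gene and describe these libraries only.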

How the data were processed

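Small RNA libraries (size range under 30, from total RNA) of 2 heart samples were used. The authors deposited whole-number read counts per miRNA gene, not normalized, for either strand and for each strand; per the labels and the text deposited beside the tables, reads were placed on mm10 with the GENCODE M21 annotation. Not given in the sources used here are the aligner, its handling of mismatches, the counter and any trimming. Reads mapped to several places counted for no gene. All 2202 gene IDs matched GENCODE M21 names, and the 4 summary lines stayed out of totals and tests. Replicate 2 had 27.0% and replicate 1 32.1% of its reads in miRNA genes.

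CPM, 95% Wilson and Clopper-Pearson intervals, exact binomial tests (genes whose reads summed to 10 or more over the libraries, Benjamini-Hochberg adjustment over 424 genes, threshold 0.05) and Fisher's exact tests used scipy 1.17.1. Log2 ratios used 0.5 reads in place of 0. Each read is taken as 1 small RNA, so levels were not divided by length. Intervals and the floor of 3 reads cover counting error only, and how well each sequence is captured in a library cannot be measured here. edgeR 4.0.16 gave TMM factors, the common dispersion and its exact test, and DESeq2 1.42.0 gave size factors. With 1 group, no quasi-likelihood fit between groups exists. The tests were also run on simulated data, but the outcome is not given here and no call above rests on it. Intron numbers are those of the host's coding transcript with a consensus coding sequence and the most exons. P-values under 1e-300 are given as at most that. Besides the 3 genes, the text names the muscle and marker lists, the neighbours in level, the 2 genes nearest in log2 ratio, and those of like seed or mature sequence. Members and lists were chosen with earlier results of these data known.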

Additional observations from a re-analysis of the deposited data

How the results depend on the processing

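Of 60 recomputed values, 44 kept their direction and side of the threshold or moved by less than the spread. The 44 do not measure stability, because part of them could not have come out otherwise. In a pair of libraries each level lies within the SD of their mean, so leaving out a library cannot move a mean level beyond it. The column for either strand held the same counts at these genes, so their ratios could not change. Dropping the filter on low counts could change a call but not a log2 ratio. Without replicate 2 the log2 ratio of Mir499 over Mir208a was 0.10 and without replicate 1 it was -0.74, against a mean of -0.32, so its sign rests on which library is used. With the common dispersion (edgeR exact test), Mir208a (log2 ratio 0.81) and Mir208b (1.20) were no longer called, leaving 6 genes higher in replicate 2 (131 by the binomial test) and 1 higher in replicate 1 (93). That dispersion came from the same pair of libraries, so the loss of these calls does not show that the libraries were alike. Mir499 was called as lower in replicate 2 with DESeq2 size factors (-0.060) and with all reads as the total (-0.27), where 81 genes were called as higher in replicate 2 and 145 as higher in replicate 1. The level of Mir208a was 2067 per 1000000 of all reads and 19694 without the 10 most abundant genes in the total. On these scales Mir208b had 23.7 and 226, and Mir499 1632 and 15457. In the column for either strand Mir499 had 7446 CPM, because its total is smaller. Divided by annotated length, the mean log2 ratios were -0.25 (Mir499 over Mir208a), 6.14 (Mir499 over Mir208b) and 6.39 (Mir208a over Mir208b). No paired analysis was possible because there is 1 group. With 152 reads in replicate 1, Mir208b sets the width of both ratios over it.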
